A study of Mus musculus with 8 samples.

Results

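Epithelial-mesenchymal transition (EMT) is the programme by which epithelial cells lose their junctions and polarity and become motile mesenchymal cells. It was described here through 9 genes: the Snail repressors Snai1 and Snai2, the Twist factors Twist1 and Twist2, the Zeb repressors Zeb1 and Zeb2, the cadherins Cdh1 and Cdh2, and Vim. The rule that chose the genes is a list of names of classical regulators and markers of EMT and uses no measured value. The list was, however, drawn up with earlier results of these data known. All 9 of 9 were found in the GENCODE annotation of the mouse genome build mm9, which holds 37273 genes on the autosomes, X and Y. Snail and Zeb factors are zinc-finger proteins that bind E-box sequences in the promoter of Cdh1, which encodes E-cadherin, and repress it. Twist factors are basic helix-loop-helix proteins that also bind E-boxes, Cdh2 encodes the mesenchymal N-cadherin, and Vim encodes the intermediate filament protein vimentin. In the heart, the epicardium uses this programme to release mesenchymal cells, during development and again after injury.

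The data were ChIP-seq of BRG1, the ATPase that drives the SWI/SNF complex, which moves nucleosomes with energy from ATP. Adult C57BL/6 mice (C57BL/6J in the paper's methods) were injected with thymosin β4 (Tβ4, 12 mg per kg) or with its vehicle, PBS, for 7 days. The mice were 10 to 12 weeks old by the sample labels and somewhat older by the paper's methods. All of them then had the left anterior descending artery tied, to give a myocardial infarction (MI). They were injected again on days 0 and 2 after MI, and hearts were taken on day 4. Each treatment gave 2 BRG1 ChIP libraries and 2 libraries of input chromatin, 8 libraries in all. The values below come from the list of BRG1 regions that the authors deposited for the Tβ4-primed hearts, called against input. The list gives the position of each region and does not separate the duplicates, with no height, count, score or p-value. It is 1 list without replicate values, so no error, no test and no comparison with PBS-primed hearts could be given, and neighbours in an order of genes cannot be said to differ. The sequencing depth behind the list is unknown. Chromatin came from whole hearts, so a region cannot be assigned to epicardial or any other cells, and there are no expression values with which to check cell types.

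The list held 524614 regions with a median length of 600 bp, which covered 25.8% of the chromosomes. The measure used is the covered share, the percentage of bases of a window that lie inside regions. It was taken over the 5 kb on either side of the transcription start site (TSS), and over the gene body with 5 kb on either side, called the gene window. To set each gene beside others of its size, its rank among the 200 genes nearest in length is given as a percentile.

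Within 5 kb of the TSS the 9 genes fell into 2 sets with a wide gap between them, which was not seen within 10 kb, where Twist1 (35.0%) passed Zeb1 (26.7%). At Twist2, Cdh2, Snai1, Cdh1, Zeb2 and Zeb1 the regions covered 84.8%, 70.2%, 70.1%, 66.5%, 62.4% and 50.4% of the 5 kb on either side. At Twist1, Vim and Snai2 they covered 19.6%, 18% and 15.7%. The median of the 9 genes was 62.4%, and that of all genes was 21.5% with quartiles at 7.50% and 39.9%. With any annotated transcript start as the TSS, the medians were 39.9% for the 9 genes and 22.3% for all genes. Within 50 kb, a width chosen after seeing the data, they were 29.9% and 25.2%. A region lay over the TSS itself in 5 of 9 genes, namely Snai1, Zeb1, Zeb2, Cdh1 and Cdh2, and in 24.7% of all genes (24.2% of protein-coding genes). Among genes of like length, 6 of 9 were above the 75th percentile in covered share around the TSS, a rank reached by 24.9% of all genes. With any annotated transcript start 5 were above it, and within 50 kb 2 were. A region within 5 kb of the TSS was present for 9 of 9 genes, but 89.9% of all genes had one, so that count says little about these genes.

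**Figure D1:**
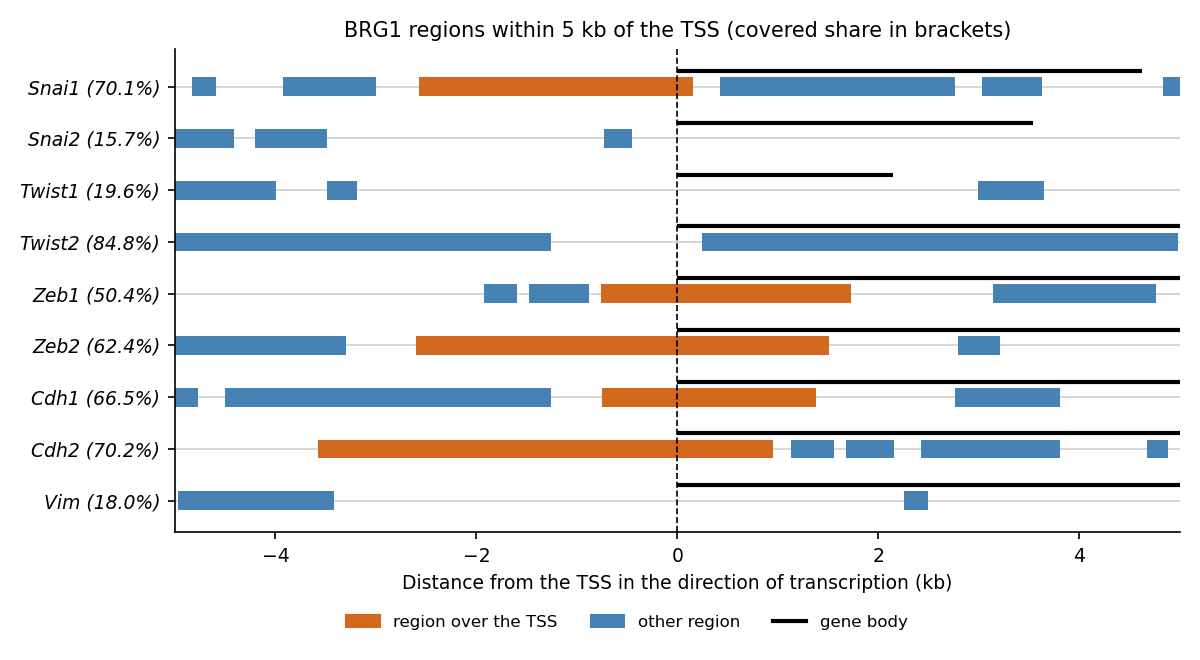
BRG1 regions of the Tβ4-primed, injured hearts within 5 kb of the TSS of each gene, drawn by distance from the TSS in kb. Orange bars are regions over the TSS, blue bars are other regions and the black line is the gene body. Snai2, Twist1 and Vim have the lowest covered shares, 15.7% to 19.6%.

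The 300 bases around the TSS are shown for Cdh1, the promoter that Snail and Zeb factors are known to bind. They are also shown for Snai1 and Zeb2, repressors whose own TSS, taken as the outermost annotated start, lay in a region. Each runs from 270 bases before the TSS to its first 30 bases, 5′ to 3′ on the strand of the gene, from the mm9 genome. Capitals mark CAGGTG or its reverse complement CACCTG, the E-box of Snail and Zeb factors.

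Cdh1, chr8:109126981-109127280, plus strand: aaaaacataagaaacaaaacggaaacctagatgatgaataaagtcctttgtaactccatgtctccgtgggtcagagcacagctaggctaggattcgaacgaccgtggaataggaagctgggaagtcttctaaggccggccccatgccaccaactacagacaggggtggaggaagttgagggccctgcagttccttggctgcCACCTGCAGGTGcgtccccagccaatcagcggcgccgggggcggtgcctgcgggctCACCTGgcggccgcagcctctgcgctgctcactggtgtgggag

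Snai1, chr2:167363425-167363724, plus strand: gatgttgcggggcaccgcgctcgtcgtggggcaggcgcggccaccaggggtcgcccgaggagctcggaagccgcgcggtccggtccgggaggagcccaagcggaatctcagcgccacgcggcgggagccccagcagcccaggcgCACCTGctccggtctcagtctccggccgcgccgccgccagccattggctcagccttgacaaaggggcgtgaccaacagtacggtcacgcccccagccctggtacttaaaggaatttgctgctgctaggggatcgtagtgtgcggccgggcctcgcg

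Zeb2, chr2:44972886-44973185, minus strand: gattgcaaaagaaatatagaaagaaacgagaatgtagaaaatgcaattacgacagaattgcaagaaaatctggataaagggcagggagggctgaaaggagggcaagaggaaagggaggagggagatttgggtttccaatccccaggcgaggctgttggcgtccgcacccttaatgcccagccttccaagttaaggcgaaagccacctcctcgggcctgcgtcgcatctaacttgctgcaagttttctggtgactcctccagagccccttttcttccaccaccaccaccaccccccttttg

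Each of these promoters lay wholly inside the BRG1 region over its TSS, and Zeb2 held no CAGGTG or CACCTG.

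The same letters were searched on both strands in the equivalent 300 bases of the other genes. This E-box was found in 3 of 9 genes, with 3 matches in Cdh1, 2 in Zeb1 and 1 in Snai1, and in 20.3% of 37267 promoters. In Cdh1 the matches began 69, 63 and 13 bp upstream of the TSS, the first pair directly adjoining, and in Snai1 the match began 126 bp upstream. These matches are also counted by the general E-box CANNTG, which Twist factors bind and which 4 of 9 genes and 73.4% of promoters held. The C/EBP letters TTGCNNAA were found in Twist2 and Zeb2, and in 11.1% of promoters. The letters GNGTGGGNG, which WT1 and EGR1 can bind, were found in Zeb1, Cdh1 and Vim, and in 12.6% of promoters. In Cdh1 this match, GTGTGGGAG, began 21 bp downstream of the TSS. A match shows that the letters are present and not that a factor was bound.

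At Snai2, Twist1 and Vim the TSS lay outside any region. Of the regions of at most 300 bp, the one nearest to the TSS is shown for each, read from mm9 in the direction of transcription. At Twist1 a longer region, of 660 bp, lay nearer, 2.994 kb downstream. None held CAGGTG or CACCTG, letters present in 16.6% of all regions of 270 bp, 18% of those of 300 bp and 14.3% of those of 240 bp. Of the regions picked in the same way at other genes, that of Snai1, of 240 bp, held CAGGTG. Those of Twist2, Zeb2 and Cdh1 held neither, and those of Zeb1 and Cdh2 were not searched.

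Snai2, chr16:14705220-14705489, plus strand: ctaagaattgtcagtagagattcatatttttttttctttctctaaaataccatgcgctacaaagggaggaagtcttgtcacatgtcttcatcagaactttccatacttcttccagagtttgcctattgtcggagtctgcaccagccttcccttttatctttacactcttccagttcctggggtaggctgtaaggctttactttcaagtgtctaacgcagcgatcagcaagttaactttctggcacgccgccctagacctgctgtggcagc

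Twist1, chr12:34639050-34639349, plus strand: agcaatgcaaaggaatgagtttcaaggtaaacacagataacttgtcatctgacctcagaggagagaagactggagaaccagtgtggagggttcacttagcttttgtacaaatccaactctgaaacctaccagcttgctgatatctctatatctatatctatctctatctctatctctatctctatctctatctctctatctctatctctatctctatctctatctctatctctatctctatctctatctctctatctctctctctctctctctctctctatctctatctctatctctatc

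Vim, chr2:13497810-13498049, plus strand: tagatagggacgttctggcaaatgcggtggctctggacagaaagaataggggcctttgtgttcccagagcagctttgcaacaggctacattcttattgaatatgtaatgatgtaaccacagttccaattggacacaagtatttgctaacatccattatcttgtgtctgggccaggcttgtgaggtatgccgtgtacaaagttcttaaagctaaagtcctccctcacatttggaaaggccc

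Here the capitals would mark the same E-box, so these runs are in lower case throughout. The region at Snai2 began 725 bp upstream of the TSS, that at Twist1 began 3.486 kb upstream, and that at Vim lay in intron 2. The region at Twist1 held a simple tandem repeat, with units of at most 6 bp over at least 30 bp, that made up 40.3% of it. Reads from such repeats are hard to place, and the part of this in the call was not tested.

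Snai1 and Snai2 encode closely related repressors, and their loci differed in covered share. Snai1 (ENSMUSG00000042821.7, chr2:167363695-167368314, plus strand, 4.62 kb) had 7 regions in its gene window and a covered share there of 50.5%, at the 84.5th percentile of genes of like length. A region of 2730 bp ran from 2.575 kb upstream into exon 1, and a region of 2340 bp covered all of exon 2. Together with a region of 600 bp in intron 2, they left 67.0% of the gene body covered. The upstream region of 930 bp also lay over the annotated gene Gm11474, so it cannot be assigned to Snai1 alone. Snai2 (ENSMUSG00000022676.6, chr16:14705945-14709488, plus strand, 3.544 kb) had 4 regions in its window and none in the gene body. They covered 31.5% of the 5 kb upstream, no base of the 5 kb downstream of the TSS, and 23.1% of the gene window, at the 47th percentile. The longest, of 4740 bp, began 6.985 kb beyond the TSS, past the end of the gene.

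Twist1 and Twist2 differed further. Twist1 (ENSMUSG00000035799.5, chr12:34642536-34644682, plus strand, 2.147 kb) had 4 regions in its window, 2 on each side and none in the body. The gap between regions over the gene was 6.18 kb, and 18.4% of the window was covered, at the 52.5th percentile. Its longest region, of 3630 bp, ended 3.997 kb upstream. Twist2 (ENSMUSG00000007805.3, chr1:93698038-93744605, plus strand, 46.568 kb) had 21 regions and 59.5% of its window covered, at the 99.5th percentile and the highest share of the 9 genes. Of these regions 19 lay wholly in its single intron, of which 65.1% was covered, and the longest ran for 7920 bp from 14.582 to 22.501 kb beyond the TSS. The TSS of Twist2 itself fell in a gap, between a region of 7200 bp that ended 1.259 kb upstream and one of 4740 bp that began 0.242 kb downstream. That second region held 404 bp of coding sequence in exon 1.

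Zeb1 and Zeb2 both had a region over the TSS and 41 regions in the gene window, but the covered shares of the windows were 20.6% and 43.5%. Zeb1 (ENSMUSG00000024238.5, chr18:5591858-5775465, plus strand, 183.608 kb) was at the 17.5th percentile of genes of like length, below the lower quartile of 22.8%. Its TSS region of 2490 bp ran from 0.758 kb upstream to 1.731 kb downstream and covered all of exon 1. Of the 4 regions within 5 kb of the TSS, that region and those of 330 and 600 bp upstream of it also lay over the neighbouring gene Gm10125. None of these can be assigned to Zeb1 alone. Of its regions, 26 lay in or reached into intron 1, of which 21.8% was covered, and a pair at the 3′ end covered 90.1% of exon 8. Zeb2 (ENSMUSG00000026872.8, chr2:44839154-44972915, minus strand, 133.762 kb) was at the 99th percentile. Its TSS region of 4110 bp ran from 2.604 kb upstream to 1.505 kb downstream. Of the 10 annotated transcript starts of Zeb2, only the outermost 1 lay in a region. At Zeb1 5 of 8 starts did, at Cdh2 2 of 3 and at Cdh1 3 of 3. Intron 3, of 86.911 kb, held 29 regions that covered 49.9% of it, the longest of 7650 bp. A region of 6480 bp ran over exons 7, 8 and 9 and held 2294 bp of coding sequence, the most of any region at the 9 genes.

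**Figure D2:**
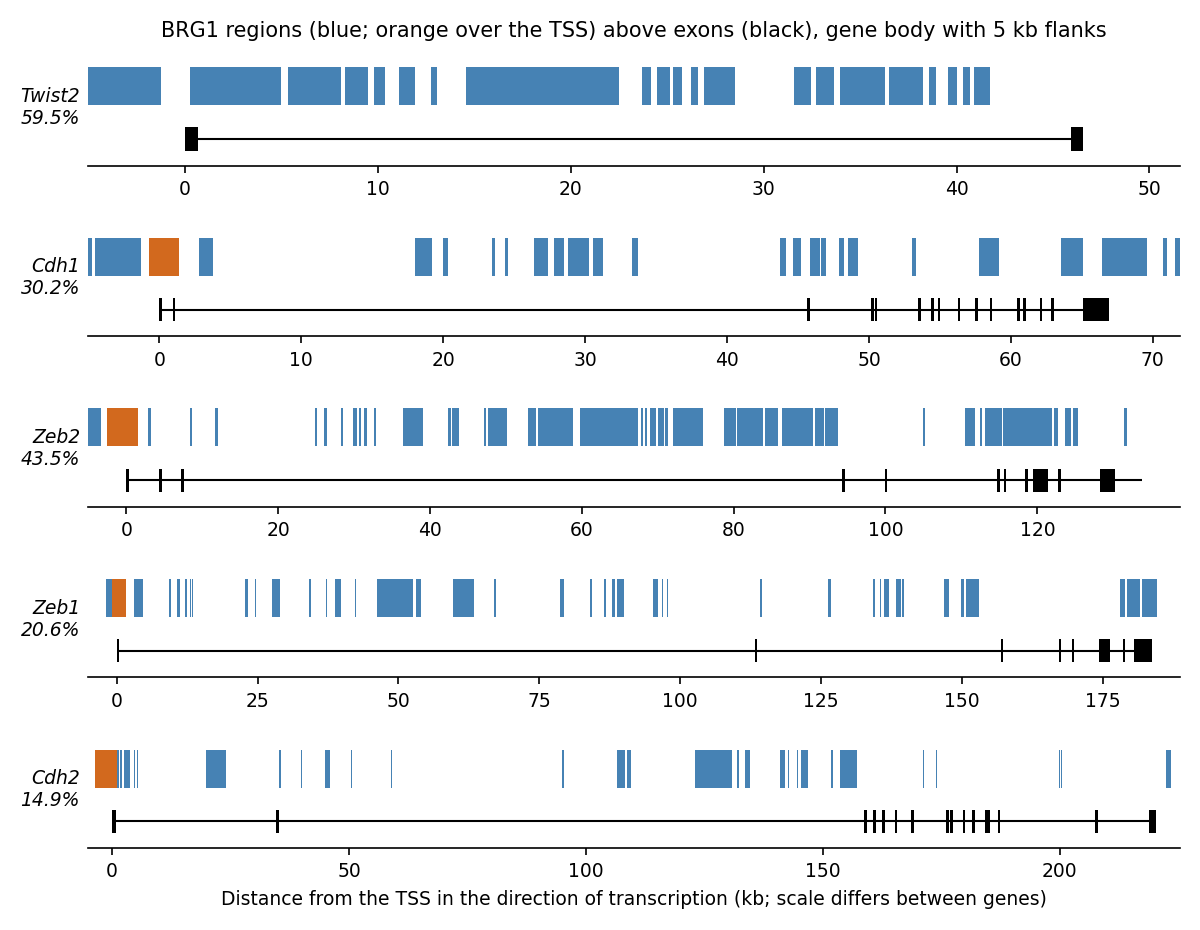
BRG1 regions along the gene body and 5 kb on either side for the 5 longer genes, by distance from the TSS in kb, with the exons of 1 transcript below. Percentages are covered shares of the gene window. Regions fill much of Twist2 (59.5%) and intron 3 of Zeb2, and are sparse along Cdh2 (14.9%).

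The cadherin genes, whose products are exchanged in EMT, were alike around the TSS and unlike along the gene. Cdh1 (ENSMUSG00000000303.6, chr8:109127251-109194146, plus strand, 66.896 kb) had 25 regions in its window. A region of 2130 bp ran from 0.751 kb upstream to 1.378 kb downstream and covered exon 1, intron 1 and exon 2. A region of 3240 bp lay just upstream of it, and 84.4% of the 5 kb upstream was covered. Over the whole window the share was 30.2%, at the 62nd percentile, and intron 2, of 44.593 kb, was covered to 19.5%. Cdh2 (ENSMUSG00000024304.8, chr18:16747386-16967755, minus strand, 220.37 kb) had 29 regions and 14.9% of its window covered, at the 4th percentile. Its TSS region was the longest over a TSS, at 4530 bp, and ran from 3.574 kb upstream to 0.955 kb downstream over all of exon 1. The rest of the gene was sparse, with a gap of 36.0 kb between regions and no region in introns 3 to 6, 8 to 13 and 15. The 91.5th percentile of Cdh2 around its TSS thus stood beside the 4th along its gene window.

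Vim (ENSMUSG00000026728.3, chr2:13495554-13504453, plus strand, 8.9 kb) had 4 regions in its window and 1 in the gene body, that of 240 bp in intron 2. This region made up 2.70% of the gene body. A region of 1560 bp ended 3.415 kb upstream of the TSS, and regions of 2610 and 930 bp lay beyond the 3′ end. The covered share of the window was 23.4%, at the 50.5th percentile, close to the median of 22.8% of genes of like length, but at the 12th percentile with 2 kb in place of 5 kb flanks.

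Along the gene windows as a whole the 9 genes were not set apart. Their median covered share was 23.4%, against 24.0% for all genes (quartiles 12.7% and 36.0%). By rank, 3 of 9 (Snai1, Twist2 and Zeb2) were above the 75th percentile of genes of like length, as were 24.9% of all genes. A region in the gene body was present in 7 of 9, against 68.4% of all genes and 84.1% of protein-coding genes. The density, the number of regions per kb of the gene window, had a median of 0.295 against 0.222 for all genes. It ranged from 0.126 at Cdh2 to 0.479 at Snai1. The order of both medians turned with the settings: the covered share was above that of all genes with regions within 500 bp joined (25.9% against 25.8%), without regions shorter than 600 bp (22.1% against 19.9%) and with 10 kb flanks, where it was 31.7% against 24.8%. With regions within 500 bp joined the density was 0.160 against 0.172.

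**Figure D3:**
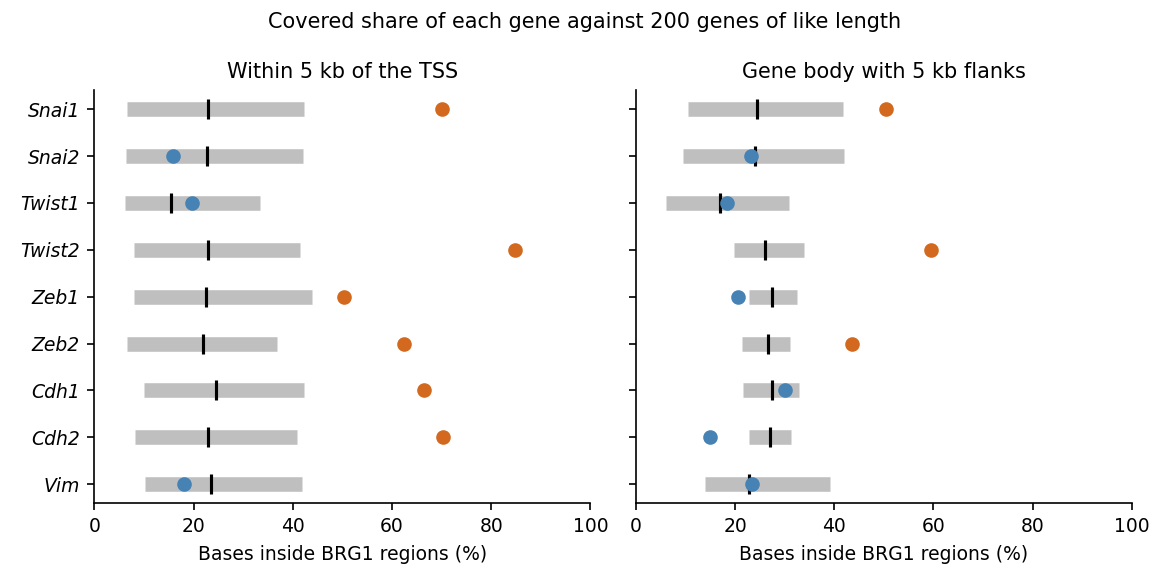
Covered share in percent of each gene (points) within 5 kb of the TSS (left) and over the gene window (right). Grey bars span the quartiles and black ticks mark the median of the 200 genes nearest in length. Points are orange above the upper quartile, which holds for 6 genes on the left and for 3 on the right.

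The coverage around the TSS was not limited to one side. In the 5 kb upstream the median of the 9 genes was 71.5%, against 16.9% for all genes, and in the 5 kb downstream 48.6% against 16.2%. Zeb1 was covered more downstream (67.0%) than upstream (33.8%), and Zeb2 the reverse (38.5% and 86.2%). In bins of 500 bp, the mean covered share of all genes was nearly flat, between 24.9% and 27.1%. That of the 9 genes ranged from 22.2% to 67.5% and rested on few genes per bin: in the 500 bp before the TSS, 5 genes were wholly covered and 6 were touched.

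**Figure D4:**
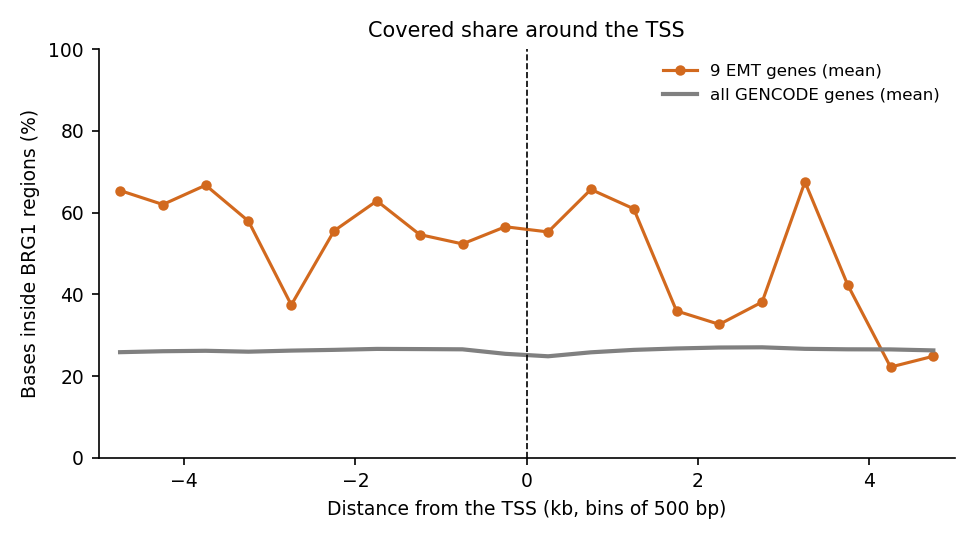
Mean covered share in percent in bins of 500 bp, by distance from the TSS in kb, for the 9 genes (orange) and for 37273 GENCODE genes (grey). The 9 genes lie between 22.2% and 67.5%, and all genes between 24.9% and 27.1%.

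The size of the window changed which genes stood high. Within 2 kb of the TSS, Snai1 (93.3%), Cdh2 (92.5%), Zeb2 (87.6%) and Zeb1 (85.5%) were covered most, and Twist1 and Vim had no covered base. Within 20 kb, Snai1 was at 22.0%, below the median of all genes of 24.5%, and Zeb1 at 17.9%. Twist1 moved the other way, from 19.6% within 5 kb to 40.7% within 20 kb. Twist2 was covered to 69.5% within 20 kb and to 48.7% within 50 kb, at the 99.2nd percentile of all genes. Cdh1 was above the 75th percentile of all genes at each width, with 35.0% within 50 kb and 38.7% within 100 kb, at the 97.3rd percentile. Zeb2 rose again to 45.8% within 100 kb, a window that takes in its intron 3. The windows of more than 10 kb were added after the data had been seen.

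**Figure D5:**
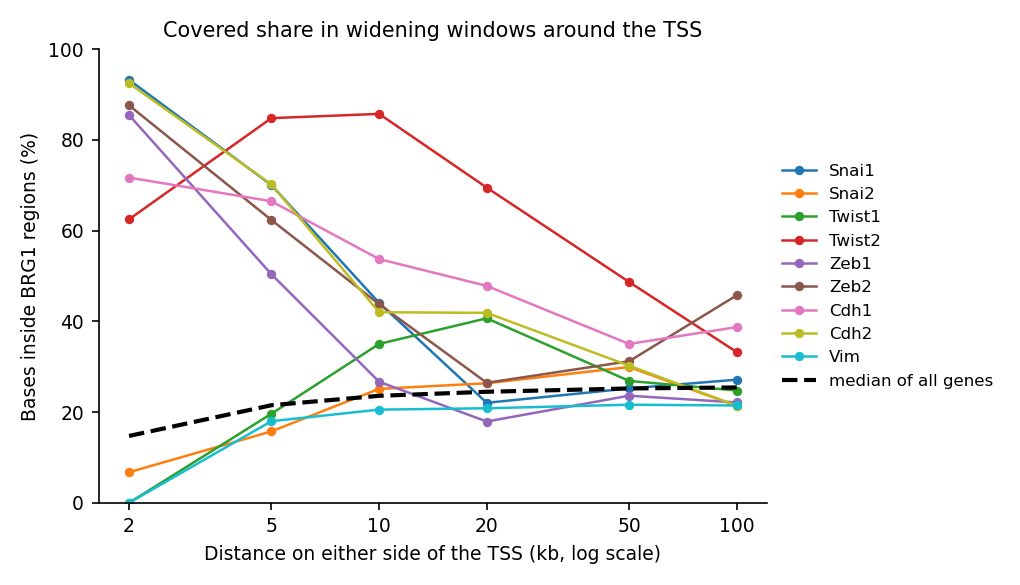
Covered share in percent of windows of 2 to 100 kb on either side of the TSS (log scale), 1 line per gene, with the median of all genes dashed. Snai1 falls from 93.3% to below the median at 20 kb, while Twist2, Cdh1 and Zeb2 stay above it at each width.

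The regions at the 9 genes resembled those of the whole list in length. There were 176, with a median of 600 bp as in the whole list, and 19.3% were longer than 2 kb in both. Of the 176, 135 lay wholly in introns, 16 over an exon (13 of them over coding sequence), 14 upstream and 11 downstream of the gene. Simple tandem repeats were present in 35 (19.9%), and in 19.7% of all regions. GC content, which can bias sequencing coverage, was higher inside regions than in the rest of the window in 5 of 9 genes and in 40.0% of 35411 genes. The largest differences were at Twist1, with 37.5% GC inside regions and 48.3% outside, and at Vim, with 38.6% and 43.0%. The 300 bases around the TSS held from 49.3% GC at Snai2 to 79% at Cdh2, and 49.7% in the median gene. Cdh2 and Snai1 (71%), the highest in GC, both had a region over the TSS, and Snai2, the lowest in GC, had the lowest covered share around it. Twist1 (65.7%), Twist2 (64.3%) and Vim (58.7%) had no region over the TSS, and Zeb1 (62.3%), Cdh1 (58.7%) and Zeb2 (51.3%) had one. When genes close in length and in GC content of the gene window were used for comparison, 6 of 9 genes were again above the 75th percentile around the TSS. The part of promoter GC content in the coverage was not tested.

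A wider list of 59 genes of EMT, in 3 classes, did not share the coverage around the TSS. Its median covered share there was 18%, against 21.5% for all genes. A region lay over the TSS in 12 of 59 (24.7% of all genes), and 14 of 59 were above the 75th percentile of genes of like length (24.9% of all genes). For the gene window 17 of 59 were above it, also against 24.9%. These counts lay near the shares of all genes. Among 19 further regulators, the median around the TSS was 25.8% and 6 had a region over the TSS. By percentile of the gene window among genes of like length, by which the genes of each class are ranked here, the forkhead factor gene Foxc2 (69.6% covered, 98.5th percentile) and the T-box factor gene Tbx18 (56.9%, 98th percentile) ranked highest, and Tcf21 (2.33%) and Ovol2 (6.09%), which encodes a repressor of EMT, ranked lowest. Among 22 epithelial junction and keratin genes, including the miR-200 family, the median around the TSS was 14.7% and 2 had a region over the TSS. The plakophilin gene Pkp2 (53.9%) and Krt19 (62.1%) ranked highest, Krt8 was at 2.89%, and the polarity gene Crb3 had no region in its window. Among 18 genes classed here as mesenchymal, which include the cadherin gene Cdh5, the median around the TSS was 18.2% and 4 had a region over the TSS. The collagen gene Col3a1 (55.0%) ranked highest, followed at the same percentile, the 94th, by the integrin gene Itga5 (53.9%) and the fibronectin gene Fn1 (43.1%). The metalloproteinase gene Mmp2 was at 3.24%, and Col1a1 had no region in its window.

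The flanks decide some of the ranks. With 10 kb in place of 5 kb, Twist1 rose to the 81.5th percentile around the TSS and the 90.5th over its gene window, while Zeb1 fell to the 55.5th around the TSS and Snai1 to the 71st over its window. The number of genes above the 75th percentile stayed at 6 and 3, with Twist1 in place of Zeb1 and of Snai1. With 2 kb flanks, Twist1 fell to the 16.75th percentile around the TSS, Vim to the 12th and Snai2 to the 23.5th over their gene windows, and the numbers above the 75th percentile were again 6 and 3.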

How the data were processed

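BRG1 ChIP-seq libraries were made by the authors from PBS- and Tβ4-primed, injured mouse hearts, with 2 ChIP and 2 input libraries each. Reads were mapped to mm9 with Bowtie 1.0.0 and regions were called with MACS2 2.0.10, per the paper's methods and the submitters' processing notes. The deposited list gives, as its other numeric values, the start and end of each region in bp. The name of the list has a field that may be the cutoff of the call, but its meaning and the way duplicates were combined are not stated in the sources used here, and the depth is unknown. Covered shares depend on the cutoff, which could not be varied because the list has no score.

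Regions were set against the GENCODE annotation of mm9 with Python 3.11.15, numpy 2.4.6 and pandas 2.3.3. The TSS is the outermost start of a gene, and a region counted with at least 1 bp of overlap. Counts and covered bases were tested against bedtools 2.31.1 and were equal for 37273 of 37273 genes. Percentiles are ranks among the 200 genes nearest in length. All 9 genes were named, and in each class of the wider list the 2 genes ranked highest and the 2 ranked lowest over the gene window, with ties. Sequences were read from the mm9 genome with pysam 0.24.0; regions and promoters on chromosome 18 are not printed. The genes and lists were chosen with earlier results of these data known. Alternatives varied the flanks, the length and joining of regions, the genes used for comparison and the TSS. No test was made.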

Additional observations from a re-analysis of the deposited data

How the results depend on the processing

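The median covered share of the gene windows was 31.7% with 10 kb flanks (24.8% for all genes). That around the TSS was 71.7% with 2 kb flanks (14.7%) and 42.0% with 10 kb flanks (23.6%). With any annotated transcript start as the TSS it was 39.9% (22.3%), and 5 genes were above the 75th percentile. A region lay over at least 1 start in 5 genes and in 32.8% of all genes. The outermost start is among these starts, so that count of 5 could not fall. Within 50 kb, an alternative chosen after seeing the data, the median around the TSS was 29.9% (25.2%). There 2 genes, Twist2 and Cdh1, were above the 75th percentile of genes of like length. In each of these the median of the 9 genes was above that of all genes, as it was over the gene window with 5 kb flanks when regions were joined (25.9% against 25.8%) or those shorter than 600 bp left out (22.1% against 19.9%). As reported, that median was below. The density was 0.219 against 0.231 with 2 kb flanks and 0.160 against 0.172 with regions within 500 bp joined, below that of all genes in both. With regions joined, or those shorter than 300 or 600 bp left out, the median around the TSS was between 58.2% and 62.4%. In these settings and with other genes for comparison, 6 genes were above the 75th percentile. Regions longer than 100 kb could not bear on the 9 genes' own shares, since their longest region had 7920 bp. Stricter score thresholds were not run, because the list has no score. No paired analysis was possible because the list does not separate the duplicates and no test was made. One list without heights cannot separate strong from weak regions.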

Other observations

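Counting each region of the list towards its closest gene gave a different picture of size. Zeb1 was the closest gene of 77 regions, Zeb2 of 71, Cdh2 of 54 and Twist2 of 50, against a median of 6 for all genes. The farthest of these regions lay 123.7 kb from Zeb1, 102.2 kb from Zeb2, 152.2 kb from Cdh2 and 119.2 kb from Twist2. These counts were not set against genes of like length. By count, Zeb1 and Cdh2 were at the 97.0th and 94.5th percentile of all genes. Their covered shares of the gene window were at the 17.5th and 4th percentile of genes of like length. Snai1 was the closest gene of 5 regions, none farther than 1.086 kb. The next protein-coding gene, Rnf114, lay 22.0 kb from Snai1, and Hdac4 lay 80.8 kb from Twist2.

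Of the regions at the 9 genes, the one with the highest share of simple repeats was at Zeb2, at 58.7%. The 4 regions at Vim held none.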
